A study of Mus musculus with 18 samples.

Results

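The genes described here are 52 mouse genes for extracellular matrix glycoproteins and matricellular proteins, chosen by name and read from the 28856 transcript clusters (the gene-level units of the array) measured in this study. They were chosen with earlier results of these data known. Their counts, set beside the shares of all transcript clusters, therefore describe this list and are not a test of it. A gene was taken as present where its symbol stood in the annotation of a transcript cluster, and 52 of 52 were found. For 3 of them (Fbn1, Loxl2 and Nid2) more than 1 transcript cluster carried the symbol, and the cluster of highest mean signal, taken over all 18 arrays, was used. Another 3 lie on a cluster shared with a second symbol, which are Fbn1 with Gm9913, Mfap4 with Mapk7 and Nid2 with 2700060E02Rik, so their signals cannot be ascribed to 1 gene alone.

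The study sorted the 3 main cell types of the kidney glomerulus by fluorescence from mice 5 weeks old and profiled each on Affymetrix Mouse Gene 1.0 ST arrays, 3 arrays per genotype and cell type. The mutant is CD2AP-/-, homozygous for the tm1Shaw allele of Cd2ap on a B6.129X1 background, and lacks an adapter protein of the podocyte slit diaphragm. Cells of both genotypes were sorted with a GFP transgene, among them Meis1-GFP for mesangial cells and Tie2-GFP for endothelial cells. Each cell type has its own reporter line, so line and cell type cannot be told apart. The genotype field gives all 9 controls as wild type, but titles and source names say control for the 3 mesangial ones and the column names mark those 3 with a plus and a minus sign. They are called wild type here, and whether they were heterozygous is not settled by these sources. Arrays are named A, B and C within a group, which states only their identity. Separate animals are not given for each array beyond the statement of biological triplicates, and the numbers of animals per sort are not given in the sources used here.

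Matrix glycoproteins fill the space between glomerular cells and form the basement membranes on which podocytes and endothelial cells sit. Fibronectin, osteopontin and periostin bind integrins, fibrillins and fibulins build elastic fibres and microfibrils, and laminins and nidogens build basement membrane. Matricellular proteins such as tenascin C, SPARC and the CCN family alter how cells attach to matrix or receive growth factors without being its main scaffold. In the glomerulus, expansion of the mesangial matrix is a feature of focal segmental glomerulosclerosis, the disease that the mutant models.

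Median signals of the arrays lay between 62.8 and 71.6, and between 9697 and 10097 transcript clusters per array reached a signal of 100, which is the minimum that the study's methods set. The sample records ascribe the signals to RMA, which normalizes by quantiles, so similar brightness of the arrays follows from the processing. The lowest Pearson r between 2 arrays of a group, across transcript clusters, was 0.967. Cd2ap itself checked the labels only in part. Its signal was 819.2, 870.4 and 797.0 in the mutant mesangial arrays against 921.6, 1036.9 and 1122.8 in the wild type ones, and 1512.4, 1502.7 and 1478.3 against 2108.1, 1670.4 and 1546.5 in podocytes, below every wild type array in both cell types. In endothelial cells it was higher in the arrays labelled mutant, at 891.4, 965.8 and 920.4 against 839.8, 858.5 and 757.2. The limma adjusted p of the genotype difference in Cd2ap was 0.151, 0.504 and 0.336 in the 3 cell types in that order, and whether the probes lie inside the altered part of the gene is not known. Cd2ap thus gave no check of the direction in endothelial cells, which is taken from the labels.

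Markers of each sorted cell type were strong in the arrays carrying its name, and in podocytes the marker signal of other cell types differed between genotypes. All 10 of 10 podocyte markers reached 100 in every podocyte array, with summed signals of 15637 to 17512 in wild type and 13837 to 16199 in mutant arrays. All 10 of 10 endothelial markers reached 100 in every endothelial array, with sums of 16275 to 18105 in wild type and 18209 to 19054 in mutant arrays. Of the 10 mesangial markers, 8 reached 100 in every mesangial array, with sums of 11258 to 12102 in wild type and 8250 to 8975 in mutant arrays. Foxd1 and Tbx18 were the exceptions, and Foxd1 was bright in podocytes. Wild type mesangial array C stood apart, with a summed podocyte signal of 4608 where the other 5 mesangial arrays had 1003 to 1349, and a summed endothelial signal of 8082 where the others had 2392 to 2929. Its erythroid sum of 4 genes was 7253 against 202 to 584 and its tubule sum of 9 genes 1896 against 487 to 508. Among podocyte arrays, the endothelial list summed to 5183, 6117 and 4625 in wild type and to 2845, 1413 and 938 in mutant arrays A, B and C, and the mesangial list to 6926, 6171 and 5558 against 4991, 3808 and 2403. These mesangial sums include Foxd1, at 1112.8, 986.2 and 1012.6 in wild type and 1096.3, 1107.2 and 1293.9 in mutant podocyte arrays. The smooth muscle and renin cell list of 7 genes summed to 907, 925 and 931 in wild type podocytes and to 3140, 2545 and 1190 in mutant arrays A, B and C. That list did not move as 1 in mutant array C. Ren1 was at 466.9 there, against 134.3 to 228.3 in wild type podocytes. Acta2, at 246.6, lay within the wild type range of 209.3 to 266.1, and Tagln, at 96.9, below that of 115.2 to 122.0. The erythroid sums were 3989, 2987 and 3963 in wild type podocytes and 5405, 720 and 232 in mutant arrays A, B and C. No marker had a signal of 0 on any array. Of the endothelial markers, Kdr, Tek and Esam were below 100 in both mutant podocyte arrays B and C. Cdh5, Emcn and Egfl7 were above 100 in both, at 276.7, 238.3 and 153.9 in B and 122.8, 121.8 and 122.4 in C. The remaining endothelial markers were above 100 in B or in C but not in both. In such sorted pools, fewer cells of a type and less RNA per cell cannot be told apart.

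**Figure D1:**
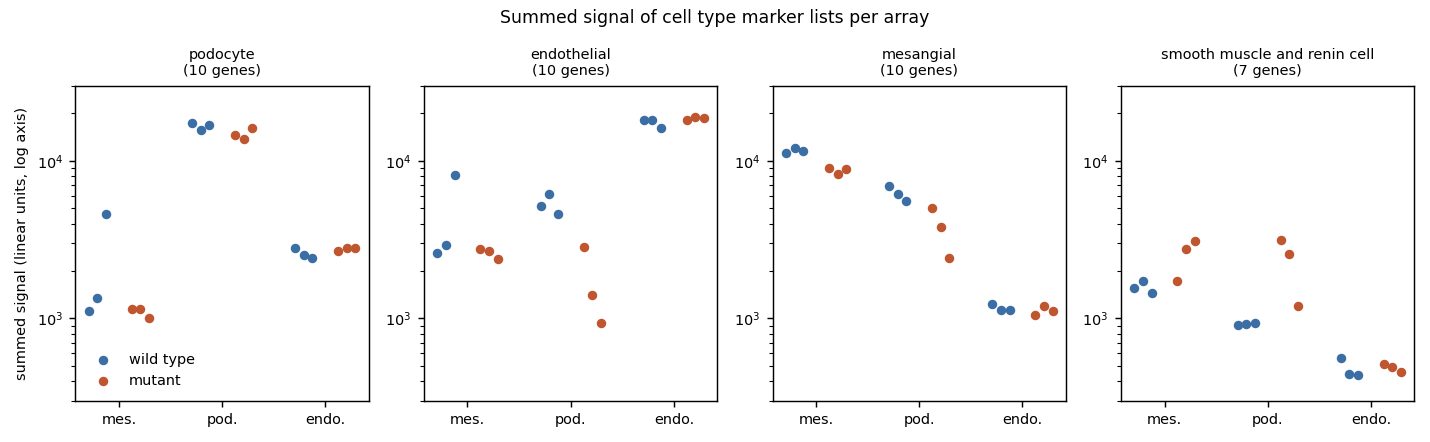
Summed signal of 4 marker lists in each array (vertical axis, linear signal units on a log scale), wild type in blue and mutant in orange, for mesangial (mes.), podocyte (pod.) and endothelial (endo.) arrays. Wild type mesangial array C carries podocyte signal of 4608 and endothelial signal of 8082, and the mutant podocyte arrays carry less endothelial and mesangial signal than the wild type podocyte arrays.

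Promoters are shown for 4 genes that were called by genotype below, have an entry in the RefSeq table and hold at least 1 of the motifs searched. They are a choice among such genes, and the windows of other called genes such as Frem1, Efemp1 and Igfbp3 hold none of these motifs. Each runs from 250 bases before to 50 bases after an annotated start in GRCm38.p6, written 5′ to 3′ on the strand of the gene. Capitals mark matches on either strand to TATAAA (the TATA box), CATTCC (the core bound by TEAD factors), CAGACA (a longer form of the SMAD element) or TGACTCA (the AP-1 site), none of which overlap in these 4 windows. The sequences are Fbln5 at chr12:101818435-101818734 on the minus strand, Postn at chr3:54360857-54361156 on the plus strand, Spp1 at chr5:104434861-104435160 on the plus strand and Cyr61 (RefSeq Ccn1) at chr3:145649936-145650235 on the minus strand.
Fbln5: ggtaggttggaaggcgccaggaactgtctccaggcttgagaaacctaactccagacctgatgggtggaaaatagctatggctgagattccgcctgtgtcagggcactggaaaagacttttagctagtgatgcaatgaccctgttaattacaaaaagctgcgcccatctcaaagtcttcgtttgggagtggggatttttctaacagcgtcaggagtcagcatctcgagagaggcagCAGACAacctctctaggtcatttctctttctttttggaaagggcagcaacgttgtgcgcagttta
Postn: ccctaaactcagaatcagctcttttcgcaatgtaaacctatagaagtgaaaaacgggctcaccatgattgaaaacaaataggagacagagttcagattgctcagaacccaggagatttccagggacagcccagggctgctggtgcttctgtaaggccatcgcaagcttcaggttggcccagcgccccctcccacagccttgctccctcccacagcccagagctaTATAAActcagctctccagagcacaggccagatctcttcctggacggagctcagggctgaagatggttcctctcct
Spp1: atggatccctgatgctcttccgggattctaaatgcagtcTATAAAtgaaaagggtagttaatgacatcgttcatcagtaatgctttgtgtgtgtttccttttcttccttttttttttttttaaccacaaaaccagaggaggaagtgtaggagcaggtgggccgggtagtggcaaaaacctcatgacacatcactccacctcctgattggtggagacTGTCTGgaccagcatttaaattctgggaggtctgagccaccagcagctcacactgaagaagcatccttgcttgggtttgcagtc
Cyr61: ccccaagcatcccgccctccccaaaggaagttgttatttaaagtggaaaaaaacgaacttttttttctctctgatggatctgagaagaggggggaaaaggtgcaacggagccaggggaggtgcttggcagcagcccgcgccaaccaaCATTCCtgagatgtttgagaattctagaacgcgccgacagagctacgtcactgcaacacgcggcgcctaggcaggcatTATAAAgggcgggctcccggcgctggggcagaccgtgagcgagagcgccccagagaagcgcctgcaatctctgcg

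The Cyr61 window holds TATAAA with its first base at -25 from the start and CATTCC at -103. Postn holds TATAAA at -26, Fbln5 holds CAGACA at -15, and Spp1 holds TATAAA at -211 and CAGACA, as its reverse complement TGTCTG, at -34. Fbln5, Postn and Spp1 have a second annotated start each, and those windows hold none of the 4 motifs. The RefSeq table gave 45 windows for 32 of the 52 genes. TATAAA stood in 22.2% of these 45 windows against 13.6% of all 32851 windows of the same length, CATTCC in 9 of them against 14.7%, CAGACA in 28.9% against 21.0% and TGACTCA in 6.67% against 5.2%. TATAAA was found in windows of 9 genes (Cyr61, Ecm1, Igfbp4, Igfbp6, Postn, Spp1, Svep1, Tnc and Vtn) and TGACTCA in those of 3 (Ecm1, Igfbp2 and Tnxb). A match says only that the letters occur in the window.

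Of the 52 genes, 38 reached a signal of 100 on 1 or more of the 18 arrays. The other 14 stayed below 100 in all 18, between 30.9 and 82.7, and are Vtn, Fbn2, Fbln1, Emilin2, Mfap4, Mfap5, Lox, Lama1, Lamb3, Fras1, Tnxb, Nov, Matn2 and Vcan. These include vitronectin, the versican proteoglycan and lysyl oxidase itself. The heatmap of the 38 genes gives their pattern over all arrays.

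**Figure D2:**
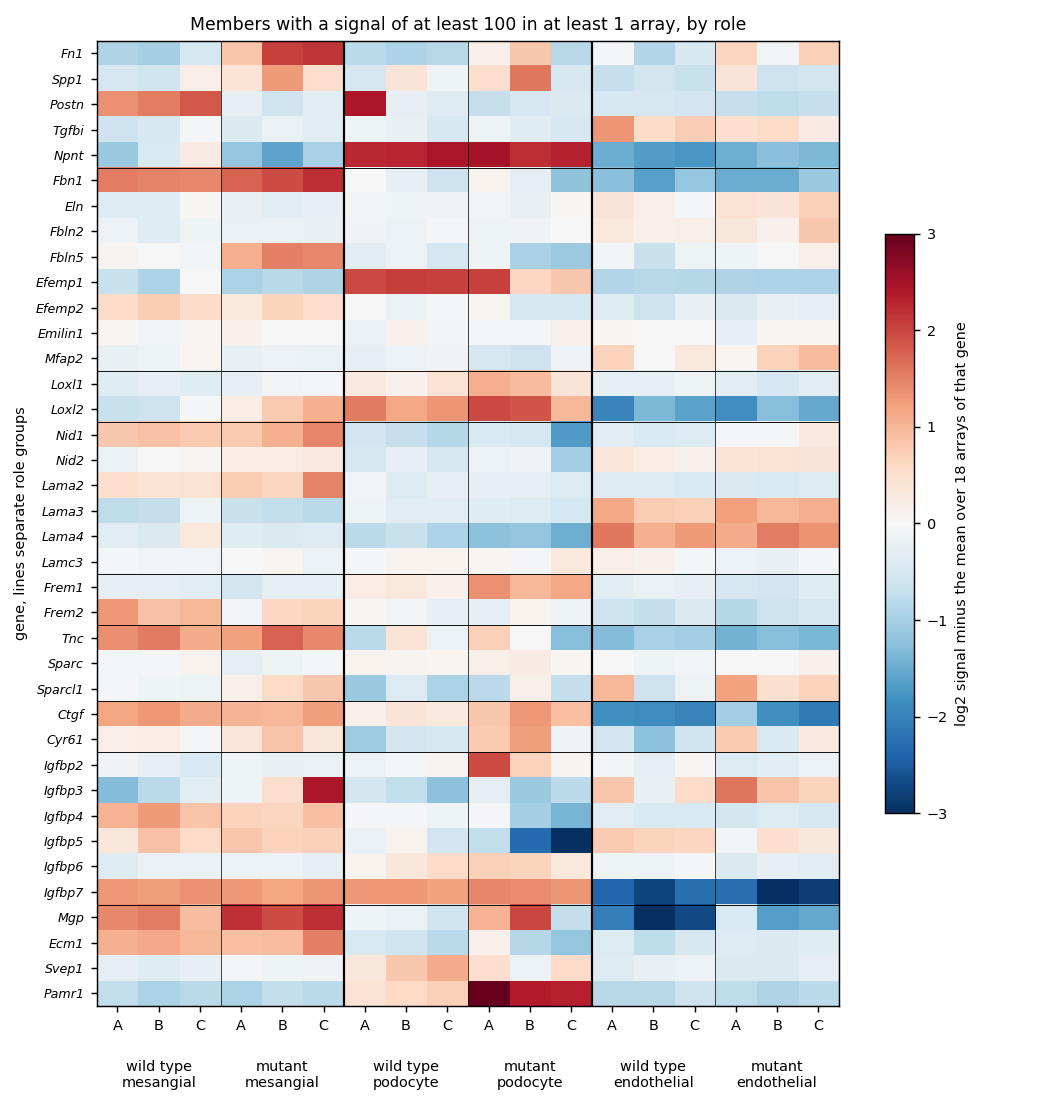
Each row is 1 of the 38 genes that reached a signal of 100 on any array, ordered by role, and each column 1 of 18 arrays. The colour is log2 signal minus the gene's mean over the 18 arrays, with the scale ending at 3 in both directions. Npnt, Efemp1, Loxl2 and Pamr1 stand out in podocyte arrays, Lama3, Lama4 and Tgfbi in endothelial arrays, and Ctgf, Igfbp7 and Mgp are low in endothelial arrays.

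The question of the wild type arrays was which glomerular cell type carries which matrix gene. The 31 genes that reached a signal of 100 on any of the 9 wild type arrays were compared between cell types, and a gene was called where the limma adjusted p was under 0.05 and the fold change over 1.5. Mesangial cells were higher than podocytes for 12 genes and lower for 5, where 9.24% and 5.9% of all 12537 transcript clusters tested were called in those directions. Against endothelial cells, mesangial cells were higher for 14 genes and lower for 4, with 9.58% and 7.91% of all transcript clusters called. Podocytes were higher than endothelial cells for 10 genes and lower for 6, with 9.83% and 11.6% of all called. The median log2 difference of the 31 genes was 0.35, 0.33 and 0.16 in these 3 comparisons, and that of all transcript clusters 0.03, -0.01 and -0.02. The 3 comparisons share their wild type arrays. In wild type podocyte arrays 10 of 10 mesangial and 9 of 10 endothelial markers also reached 100 in every array. The mesangial sum, which includes Foxd1, was 5558 to 6926 there and 11258 to 12102 in wild type mesangial arrays. The part of such cells in the podocyte levels below was not tested. In 22 of the 51 calls the lower cell type lay wholly under a signal of 100. The files give no detection call, so a fold change against such a group is also given below with 100 in place of its signals, as a lower bound written "at least", and in 14 of the 22 this bound was over 1.5.

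Mesangial cells were highest against both other cell types for 10 genes, Fbn1, Efemp2, Nid1, Frem2, Tnc, Ctgf, Cyr61, Igfbp4, Mgp and Ecm1. The Cyr61 call against podocytes was lost with all 18 arrays in 1 fit. Among these, Mgp, which encodes the calcification inhibitor matrix Gla protein, averaged 1328 ± 277 (SD, n = 3) in mesangial cells, 432 ± 70.4 in podocytes and 87.6 ± 34.9 in endothelial cells. Its log2 difference was 1.61 from podocytes (adjusted p 0.00198) and 3.98 from endothelial cells (adjusted p 5.09e-06). Fbn1, the main fibrillin of microfibrils, averaged 512 in mesangial cells, 3.44-fold above podocytes and 7.15-fold (at least 5.11-fold) above endothelial cells, with adjusted p of 6.55e-05 and 2.08e-06. Nid1, a nidogen that links laminin to collagen IV, had signals of 622.7, 651.3 and 610.7 in mesangial arrays, 237.8, 218.1 and 195.2 in podocyte arrays and 286.8, 258.6 and 266.7 in endothelial arrays. The mesangial arrays lay above all others, and podocytes and endothelial cells were not called apart (fold change 1.25, adjusted p 0.023). Tenascin C (Tnc) had signals of 276.2, 309.0 and 229.8 in mesangial arrays, 60.2, 140.2 and 93.4 in podocyte arrays and 43, 53.3 and 51.4 in endothelial arrays, with no overlap between the 3 groups and a mesangial level at least 2.70-fold above the endothelial one. Ecm1, a glycoprotein of the dermal and vascular matrix, averaged 650 in mesangial cells, 3.07-fold above endothelial cells, the next group, and endothelial cells and podocytes were not called apart (adjusted p 0.705).

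Podocytes were highest against both other cell types for 5 genes, Npnt, Efemp1, Loxl2, Svep1 and Pamr1. Nephronectin (Npnt), an integrin ligand of the glomerular basement membrane, averaged 1254 ± 83.2 in podocytes against 198 ± 91.8 in mesangial cells and 80.3 ± 7.19 in endothelial cells. The log2 difference was 3.97 from endothelial cells (at least 12.5-fold), with an adjusted p of 5.69e-06, and 2.77 from mesangial cells in the same direction, 6.81-fold with an adjusted p of 7.34e-05. Npnt in the wild type mesangial arrays was 115.3, 181.9 and 296.7, and its highest value stood in array C, the one with podocyte marker signal. Loxl2, a lysyl oxidase that crosslinks collagen IV, averaged 516 in podocytes, 3.47-fold above mesangial cells and 7.95-fold (at least 5.13-fold) above endothelial cells. Efemp1, the fibulin-like glycoprotein fibulin-3, averaged 256 ± 8.49 in podocytes and 45.2 and 34.7 in the other cell types, a level at least 2.56-fold higher in podocytes than in either. Svep1 and Pamr1 were close to the minimum in podocytes and wholly under it elsewhere, and with 100 as the floor their podocyte levels were at least 1.10-fold and 1.05-fold higher.

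Endothelial cells were highest against both for 4 genes, Tgfbi, Lama3, Lama4 and Igfbp3. The Igfbp3 call against mesangial cells was lost without wild type endothelial array A or C or wild type mesangial array A, with a log2 difference between -1.52 and -0.97, and both Igfbp3 calls were lost with all 18 arrays in 1 fit. The laminin chain gene Lama4, which encodes the alpha 4 chain of vascular basement membranes, averaged 346 in endothelial cells, 2.76-fold above mesangial cells and 4.28-fold (at least 3.42-fold) above podocytes, with adjusted p of 0.000469 and 4.48e-05. Lama3 averaged 176 against 78.5 in podocytes and 66.2 in mesangial cells, at least 1.74-fold higher than in both, and Tgfbi, an integrin-binding protein induced by transforming growth factor beta, averaged 222 against 97.6 and 91.9.

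Igfbp7 separated 2 cell types from the third. It averaged 2902 ± 112 in mesangial cells and 2842 ± 107 in podocytes, which were not called apart (95% confidence interval of the log2 difference -0.26 to 0.32), and 214 ± 39.1 in endothelial cells, 13.7-fold lower than in mesangial cells (adjusted p 4.34e-08). Igfbp5 did not differ between mesangial and endothelial cells by this test (2167 and 2281, adjusted p 0.735) and was 1.88-fold lower in podocytes than in endothelial cells (adjusted p 0.00319), a call lost with all 18 arrays in 1 fit. No pair was called for 8 genes, Fn1, Spp1, Eln, Fbln5, Emilin1, Mfap2, Sparc and Sparcl1. Sparc, which encodes a collagen-binding matricellular protein, averaged 4679 ± 322, 4967 ± 80.4 and 4443 ± 204 in mesangial cells, podocytes and endothelial cells.

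The genotype comparison asked which matrix genes change in each cell type when Cd2ap is mutated. Genes entered where any of the 6 arrays reached a signal of 100, and were called at an unadjusted limma p under 0.05 with a fold change over 1.5. These thresholds follow the study's low stringency screen, whose methods name a moderated t statistic in GeneSpring and no adjustment. In mesangial cells 28 of the 52 genes entered, of which 7 were higher in the mutant (Fn1, Spp1, Fbln5, Loxl2, Sparcl1, Igfbp3 and Mgp) and 2 lower (Postn and Frem2). Over all 11457 transcript clusters tested, 2.08% were called higher and 3.12% lower. In podocytes 34 entered, with 5 higher (Fn1, Frem1, Ctgf, Cyr61 and Pamr1) and 3 lower (Efemp1, Igfbp4 and Igfbp5), against 1.26% and 4.34% of 12113 transcript clusters. In endothelial cells 24 entered, with 3 higher in the arrays labelled mutant (Fn1, Cyr61 and Mgp) and 0 lower, against 2.96% and 0.865% of 11330 transcript clusters.

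In all, 16 of the 38 genes that entered any comparison were called in at least 1 cell type, beside 11.1% of all 13523 transcript clusters, 11 of them higher and 5 lower, and none in opposite directions in different cell types. Fn1 was called in all 3 cell types, Cyr61 in podocytes and endothelial cells, and Mgp in mesangial and endothelial cells. After Benjamini-Hochberg adjustment over all transcript clusters, 3 genes passed 0.05 in mesangial cells (Fn1, Fbln5 and Postn), where 2.92% of all passed. None passed in podocytes, where 0.0578% of all passed, nor in endothelial cells, where 1.29% passed. An unadjusted p under 0.05 was found in limma for 13 of the 28 genes in mesangial cells, beside 2486 of all 11457 transcript clusters. It was found for 9 of the 34 genes in podocytes, beside 14.3% of all transcript clusters, and for 7 of the 24 in endothelial cells, beside 18.5%. Where 1 array had to reach 500 and the difference had to exceed 2-fold, Fn1 and Igfbp3 were higher and 0 genes lower in mesangial cells, beside 0.297% and 0.227% of all. In podocytes Cyr61 and Pamr1 were higher and Igfbp5 lower, beside 0.165% and 0.487%, and in endothelial cells 0 genes were higher or lower, beside 0.415% and 0.0794%. The median log2 fold change of the genes that entered was 0.09 in mesangial cells, 0.04 in podocytes and 0.23 in endothelial cells, beside -0.03, -0.04 and 0.07 for all transcript clusters. Because the minimum is met by 1 array, some genes entered only through 1 genotype. Fn1, Spp1 and Lama2 entered in mesangial cells through mutant arrays alone and Postn through wild type arrays alone, and in podocytes Fn1, Loxl1, Lamc3, Frem1, Igfbp2 and Igfbp6 entered through mutant arrays alone and Postn and Svep1 through wild type arrays alone. In endothelial cells Spp1, Npnt, Fbln2 and Ctgf entered through mutant arrays alone and 0 genes through wild type arrays alone. A gene that entered through 1 genotype alone could enter only because it was high there, so these counts and medians are a description. In 5 of the 20 calls (Fn1, Spp1 and Postn in mesangial cells, Fn1 and Frem1 in podocytes) the lower genotype lay wholly under 100, and with 100 in place of its signals the fold change stayed over 1.5 in 2, Fn1 and Postn in mesangial cells.

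**Figure D3:**
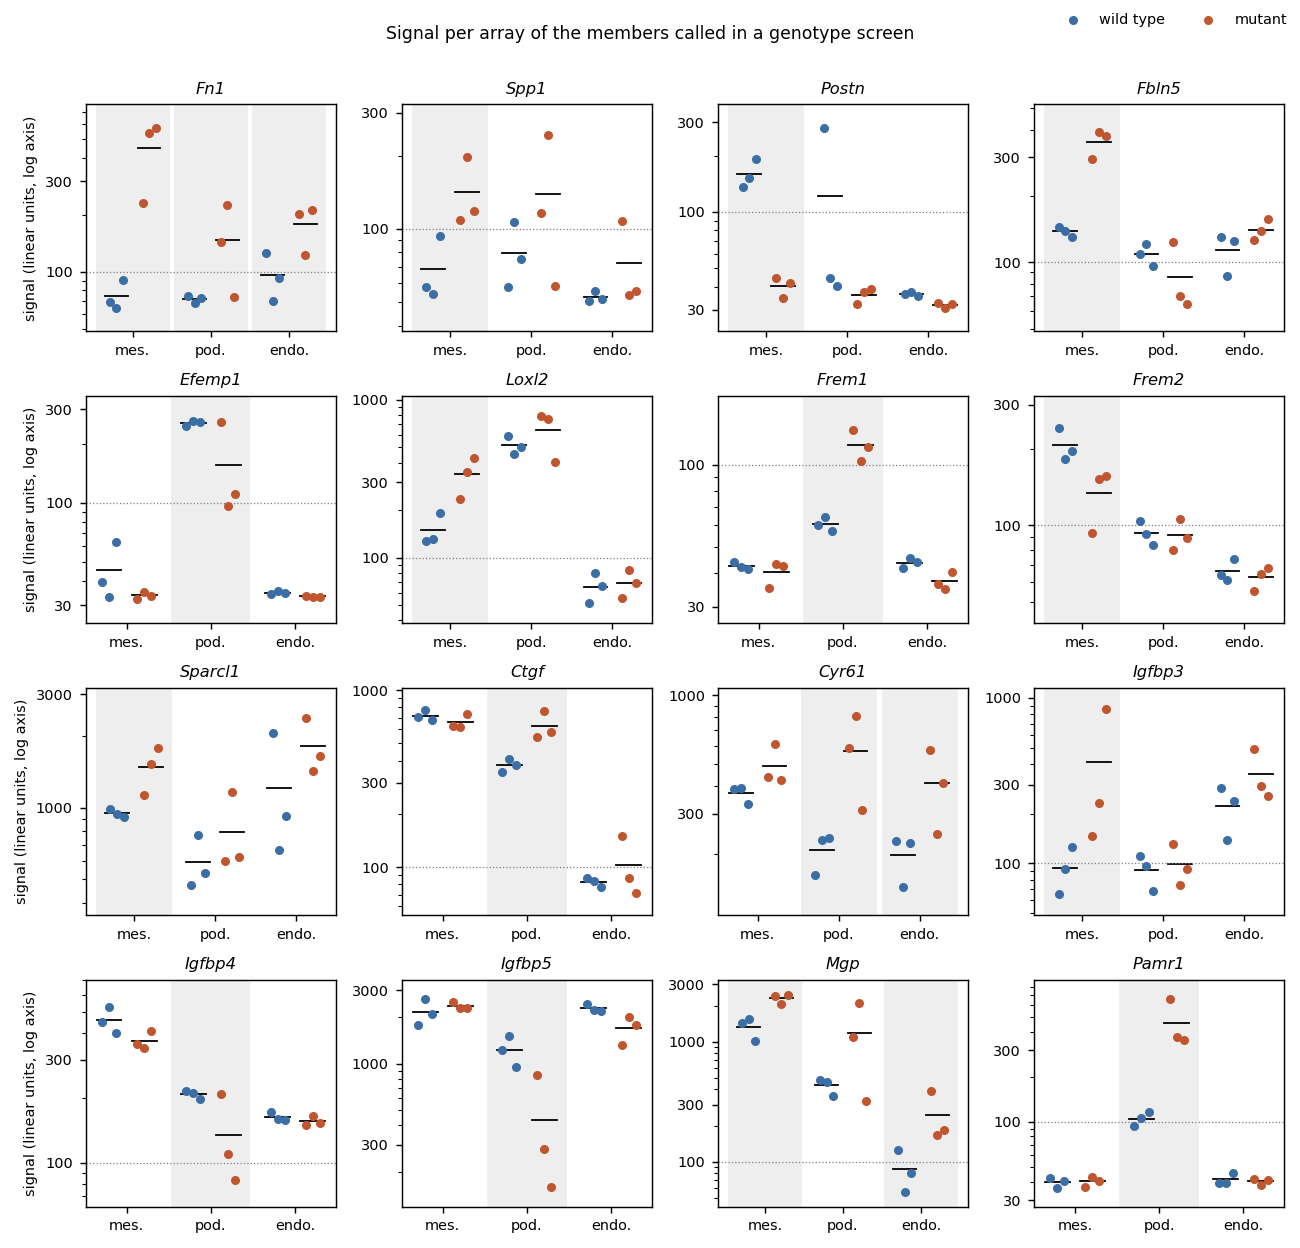
Signal of each array for the 16 genes called in a genotype screen (vertical axis, linear signal units on a log scale), wild type in blue and mutant in orange, with the group mean as a bar. Grey panels mark the cell types in which the gene was called and the dotted line a signal of 100. Fn1 rises from 64.8 to 90.2 in wild type to 231.0 to 574.1 in mutant mesangial arrays, and Postn falls from at least 135.8 to at most 44.3.

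Among adhesive glycoproteins, Fn1 (fibronectin) had the largest increase in mesangial cells. Its signal was 69.6, 64.8 and 90.2 in the wild type mesangial arrays A, B and C and 231.0, 540.8 and 574.1 in the mutant arrays. The mutant arrays all lay above the wild type arrays, which were under the minimum of 100. This was a log2 fold change of 2.49 ± 0.35 (SE), or 5.61-fold as measured and at least 4.15-fold over the minimum of 100, with an unadjusted p of 0.000221 and an adjusted p of 0.0235. Mutant mesangial array A was the dimmest of the mutant arrays for Fn1, Spp1, Fbln5, Loxl2, Sparcl1 and Igfbp3, and its smooth muscle and renin cell sum was 1733, against 2758 and 3078 in mutant arrays B and C and 1457 to 1728 in wild type. The parietal epithelium sum of 5 genes was at most 382 in wild type and 499, 500 and 587 in mutant mesangial arrays. Within it Cldn1 was higher, at 188.0, 193.4 and 313.9 against 108.6, 117.4 and 92.7, while Pax8 and Pax2 stayed under 100. The fibroblast list of 7 genes did not move as 1. Its sum was lower in the mutant, at 2328 to 2621 against 2908 to 3294, and Cd34 within it was at 700.3 to 824.9 against 1494.7 to 1632.3. Col14a1 was higher, at 507.4, 351.2 and 562.8 against 82.6, 85.9 and 138.9, as was Dpep1, at 101.3 to 161.2 against 44.0 to 49.9. The part of those cells in these increases was not tested. In podocytes Fn1 was 74.5, 68.1 and 72.7 in wild type and 143.4, 226.6 and 73.6 in mutant arrays. Mutant arrays A and B were high and C lay among the wild type values. The smooth muscle and renin cell sums of the mutant arrays, 3140, 2545 and 1190, were also lowest in C, and so were the signals of Spp1, Loxl2, Cyr61 and Mgp among the 3 mutant podocyte arrays. The part of those cells in these results was not tested. The log2 fold change was 0.90 ± 0.36 (adjusted p 0.327), and the call was lost without mutant array A or B or any 1 of the wild type arrays, over a range of 0.52 to 1.33. It was also lost with no signal minimum, with array medians subtracted and with quantile normalization. In endothelial cells Fn1 was 125.5, 70.3 and 93.2 in wild type arrays and 202.5, 123.2 and 212.9 in the arrays labelled mutant. Mutant array B lay just below wild type array A, so the groups overlapped, and the log2 fold change was 0.90 ± 0.26 with an unadjusted p of 0.00913 and an adjusted p of 0.152. The difference between the mesangial increase and that in each of the other cell types did not pass as an interaction in limma (adjusted p 0.212 against podocytes and 0.164 against endothelial cells).

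Postn (periostin), an integrin ligand made by activated fibroblasts, changed the other way. It had signals of 135.8, 152.5 and 190.5 in wild type mesangial arrays and 44.3, 34.6 and 42 in the mutant ones, which all lay below 100. This was a log2 fold change of -1.98 ± 0.16, a 3.94-fold decrease as measured and at least 1.58-fold down to the minimum of 100, with an adjusted p of 0.00388. Postn entered this comparison through the wild type arrays alone. The mesangial marker sum was also lower in the mutant arrays, at 8250 to 8975 against 11258 to 12102. So was the fibroblast sum, at 2328 to 2621 against 2908 to 3294, and the part of either was not tested. In podocytes wild type array A alone held Postn signal, at 280.9 beside 44.4 and 40.2 in arrays B and C and 32.4, 37.3 and 38.7 in mutant arrays, and no call was made (unadjusted p 0.129). Endothelial arrays of both genotypes ranged from 30.8 to 37.2.

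Spp1 (osteopontin), a secreted phosphoprotein of injured kidney, had signals of 57.8, 53.8 and 93.2 in wild type and 109.2, 197.5 and 118.5 in mutant mesangial arrays, with no overlap and a log2 fold change of 1.05 ± 0.29 (unadjusted p 0.00888, adjusted p 0.108), at least 1.37-fold over the minimum of 100. The leukocyte sum of 9 genes was highest in the same arrays as Spp1 within each genotype, at 486, 446 and 905 in wild type and 512, 821 and 465 in mutant mesangial arrays, and its part was not tested. Within that sum Ptprc was at 361.1 in mutant array B and at 78.7 and 67.3 in A and C. Wild type array C also had the highest erythroid and tubule sums, 7253 and 1896. In podocytes it was 57.5, 107.0 and 75.1 in wild type and 116.8, 243.9 and 58.2 in mutant arrays, where array C again lay with the wild type values and the log2 fold change of 0.61 was not called. In endothelial cells mutant array A alone stood out, at 107.6 against 53.4 and 55.8 in the other mutant arrays and 50.6 to 55.4 in wild type, and the leukocyte sums were 784, 605 and 476 in mutant and 494 to 546 in wild type arrays. Npnt and Tgfbi were not called by genotype in any cell type. Npnt averaged 1254 and 1260 in wild type and mutant podocytes, with a 95% confidence interval of the log2 difference of -0.30 to 0.31. In mesangial cells its log2 fold change of -0.80 (unadjusted p 0.0521) was read with array C, the wild type array at 296.7, included.

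In the elastic fibre and microfibril group of 13 genes, Fbln5 was the 1 gene called higher in mesangial cells and Efemp1 the 1 gene called lower in podocytes. Fbln5 (fibulin-5), which places elastin on microfibrils, had signals of 144.4, 139.3 and 130.5 in wild type and 292.8, 390.4 and 373.8 in mutant mesangial arrays. The mutant arrays lay well above all wild type arrays, and the log2 fold change was 1.34 ± 0.13 with an adjusted p of 0.00642. In podocytes Fbln5 was 109.6, 120.9 and 96.0 in wild type and 123.1, 70.0 and 64.9 in mutant arrays, and in endothelial cells 130.2, 86.8 and 124.4 against 126.7, 138.9 and 156.5. Groups overlapped in both, and neither was called (log2 fold change -0.40 and 0.32). The mutant podocyte arrays A, B and C were ordered for Fbln5 as for their mesangial sums of 4991, 3808 and 2403 and endothelial sums of 2845, 1413 and 938, whose part was not tested.

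Efemp1 had signals of 246.6, 262.8 and 259.0 in wild type and 259.6, 95.9 and 110.5 in mutant podocyte arrays. Mutant array A lay within the wild type range and arrays B and C were low. Over all arrays the log2 fold change was -0.87 ± 0.34 (unadjusted p 0.0365, adjusted p 0.325), and the call held only with all arrays or without mutant array A, over a range of -1.31 to -0.60. Endothelial and mesangial marker sums were lower in mutant than in wild type podocytes, and the erythroid sums of 5405, 720 and 232 in mutant arrays A, B and C were high in A as Efemp1 was. Efemp1 was at 33.1 to 35.4 in endothelial and 32.4 to 62.9 in mesangial arrays. The part of those cells in the decrease was not tested.

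Elastin (Eln) and fibrillin 2 (Fbn2) were not called. Eln had mesangial signals of 95.6, 96.4 and 128.0 in wild type and 106.5, 99.1 and 104.7 in mutant arrays, podocyte signals of 117.1, 114.5 and 115.1 against 116.9, 107.4 and 130.2, and endothelial signals of 162.3, 140.5 and 122.2 against 169.0, 161.9 and 204.9. The mesangial and podocyte groups overlapped, with 95% confidence intervals of the log2 fold change of -0.34 to 0.28 and -0.26 to 0.32, and the endothelial log2 fold change was 0.34 (unadjusted p 0.0408, 1.26-fold). Fbn2 had mesangial signals of 51.6, 45.7 and 52.7 in wild type and 75.4, 68.4 and 76.1 in mutant arrays, which did not overlap but stayed below 100 in both genotypes, so no fold change is given. Its podocyte signals were 48.0, 45.2 and 48.2 against 51.5, 53.5 and 55, and its endothelial signals 49.9, 50.8 and 52.2 against 47.3, 43.8 and 45.5. Fbn1 had a log2 fold change of 0.49 in mesangial cells (unadjusted p 0.00546, 1.4-fold), under the fold threshold, while Efemp2, Emilin1, Mfap2 and, in endothelial cells, Fbln2 had fold changes from 1.02 to 1.18 in the comparisons they entered.

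Crosslinking enzymes were represented by Loxl2 and Loxl1, since Lox stayed below 100. Loxl2 had signals of 126.8, 131.7 and 192.6 in wild type and 233.7, 350.5 and 425.6 in mutant mesangial arrays, with no overlap and a log2 fold change of 1.15 ± 0.26 (unadjusted p 0.003, adjusted p 0.0689). In podocytes Loxl2 was 593.2, 450.7 and 504.8 in wild type and 791.3, 752.2 and 403.6 in mutant arrays, so that mutant arrays A and B lay above and C below every wild type array, and the log2 fold change of 0.28 was not called. The smooth muscle and renin cell sum was lowest in C too. Endothelial arrays ranged from 51.2 to 82.8. Loxl1 had a log2 fold change of 0.52 in podocytes (unadjusted p 0.0339, 1.44-fold), under the fold threshold.

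None of the 8 basement membrane genes was called by genotype in a cell type. Nid1 had signals of 622.7, 651.3 and 610.7 in wild type and 616.2, 746.9 and 984.7 in mutant mesangial arrays, with a log2 fold change of 0.29 and a 95% confidence interval of -0.11 to 0.69. In endothelial cells all 3 arrays labelled mutant lay above the wild type ones, at 343.5, 341.1 and 435.1 against 286.8, 258.6 and 266.7, a log2 fold change of 0.46 ± 0.12 (unadjusted p 0.00508) that was 1.37-fold. In podocytes Nid1 was 237.8, 218.1 and 195.2 in wild type and 256.6, 245.9 and 109.9 in mutant arrays, with array C alone low. Nid2 was 1.22-fold higher in mutant mesangial cells (unadjusted p 0.0198, adjusted p 0.152). Lama2 was at 70.3 to 74.9 in wild type and 89.5, 82.2 and 148.0 in mutant mesangial arrays, a log2 fold change of 0.51 with an unadjusted p of 0.0521. Lama3 and Lama4 in endothelial cells had log2 fold changes of 0.22 and 0.03, and Lamc3 in podocytes 0.06. Lama1 and Lamb3 stayed below 100.

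The Fraser complex, Fras1 with its relatives Frem1 and Frem2, anchors epithelial basement membranes, and Frem1 and Frem2 were called, in different cell types. Frem1 had signals of 60.2, 64.1 and 57.0 in wild type and 133.6, 102.9 and 116.0 in mutant podocyte arrays. All mutant arrays lay above 100 and all wild type arrays below it, and the log2 fold change was 0.95 ± 0.14 with an unadjusted p of 0.000169 and an adjusted p of 0.102, at least 1.17-fold over the minimum. The parietal epithelium sum was also higher in these arrays, at 888, 887 and 687 against 475 to 488 in wild type, and its part was not tested. Within it Cldn1 was at 503.0, 376.7 and 297.9 against 138.4 to 171.4, and Pax8 at 120.9 to 206.1 against 92.2 to 109.7. Krt8 overlapped between genotypes, and Krt18 and Pax2 stayed under 100. Frem1 ranged from 35.3 to 44.0 in mesangial arrays and from 34.9 to 45.2 in endothelial arrays. Frem2 had signals of 242.6, 182.1 and 195.9 in wild type and 93.2, 152.9 and 156.7 in mutant mesangial arrays, with no overlap and a log2 fold change of -0.65 ± 0.22 (unadjusted p 0.0224, adjusted p 0.161). That call was lost without mutant array A or without wild type array A, over a range of -0.78 to -0.41. Fras1 was below 100 in every array, with 82.7, 77.5 and 82.2 in wild type and 55.1, 56.4 and 62.8 in mutant mesangial cells.

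Of the matricellular genes, Sparcl1 (hevin) was called in mesangial cells. Its signals were 989.5, 946.1 and 919.3 in wild type and 1134.4, 1535.9 and 1790.2 in mutant arrays, which did not overlap. The difference of 0.62 ± 0.17 on the log2 scale was close to the fold threshold at 1.54-fold (unadjusted p 0.00777, adjusted p 0.102), and the call was lost without mutant array B or C. In endothelial cells Sparcl1 varied widely within wild type, from 666.3 to 2058.1, and was not called (log2 fold change 0.72, unadjusted p 0.0997). Tnc had mesangial signals of 276.2, 309.0 and 229.8 in wild type and 245.8, 360.3 and 287.3 in mutant arrays, podocyte signals of 60.2, 140.2 and 93.4 against 173.3, 106.6 and 43.7, and endothelial signals of 43, 53.3 and 51.4 against 39.4, 43.3 and 40.6. Mutant and wild type overlapped in mesangial cells and podocytes (log2 fold change 0.13 and 0.01), with a 95% confidence interval in podocytes of -1.16 to 1.18. Sparc had fold changes of 1.06 to 1.12 in the 3 cell types, and Tnxb stayed below 100.

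The CCN family comprises matricellular proteins often induced by mechanical stretch and growth factors, and 2 of its genes were called in mutant podocytes. Ctgf (connective tissue growth factor) had signals of 345.3, 407.7 and 380.3 in wild type and 545.7, 766.3 and 580.7 in mutant podocyte arrays, with no overlap. Its log2 fold change was 0.73 ± 0.16, or 1.66-fold (unadjusted p 0.00233, adjusted p 0.154), and was lost as a call without mutant array B. In the same arrays the smooth muscle and renin cell sums were 3140, 2545 and 1190 against 907 to 931 in wild type and the parietal epithelium sums 888, 887 and 687 against 475 to 488, and their part was not tested. In mesangial cells Ctgf was 708.0, 770.8 and 676.0 against 630.7, 617.8 and 735.4, overlapping groups with a 95% confidence interval of the log2 fold change of -0.37 to 0.12. In endothelial cells it was 86.6, 83.6 and 77.6 in wild type and 149.6, 86.7 and 71.6 in mutant arrays, where array A alone was high.

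Cyr61 was higher in the mutant in all 3 cell types and called in 2. Its podocyte signals were 161.3, 229.7 and 236.0 in wild type and 584.6, 806.6 and 312.1 in mutant arrays, so that mutant and wild type arrays did not overlap. The increase of 1.36 ± 0.34 on the log2 scale was 2.56-fold (unadjusted p 0.00415, adjusted p 0.177), and array C, lowest of the mutant arrays, was also lowest for the smooth muscle and renin cell sums of 3140, 2545 and 1190. In endothelial cells the signals were 228.8, 143.5 and 223.3 in wild type and 576.2, 244.3 and 410.0 in the arrays labelled mutant, again without overlap, and the log2 fold change was 0.99 ± 0.31 (unadjusted p 0.013, adjusted p 0.173). Mesangial cells had 387.3, 392.0 and 330.6 against 435.5, 610.1 and 424.9, which do not overlap but give 1.31-fold (unadjusted p 0.0453), under the fold threshold. Nov, the third member, stayed below 100.

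**Figure D4:**
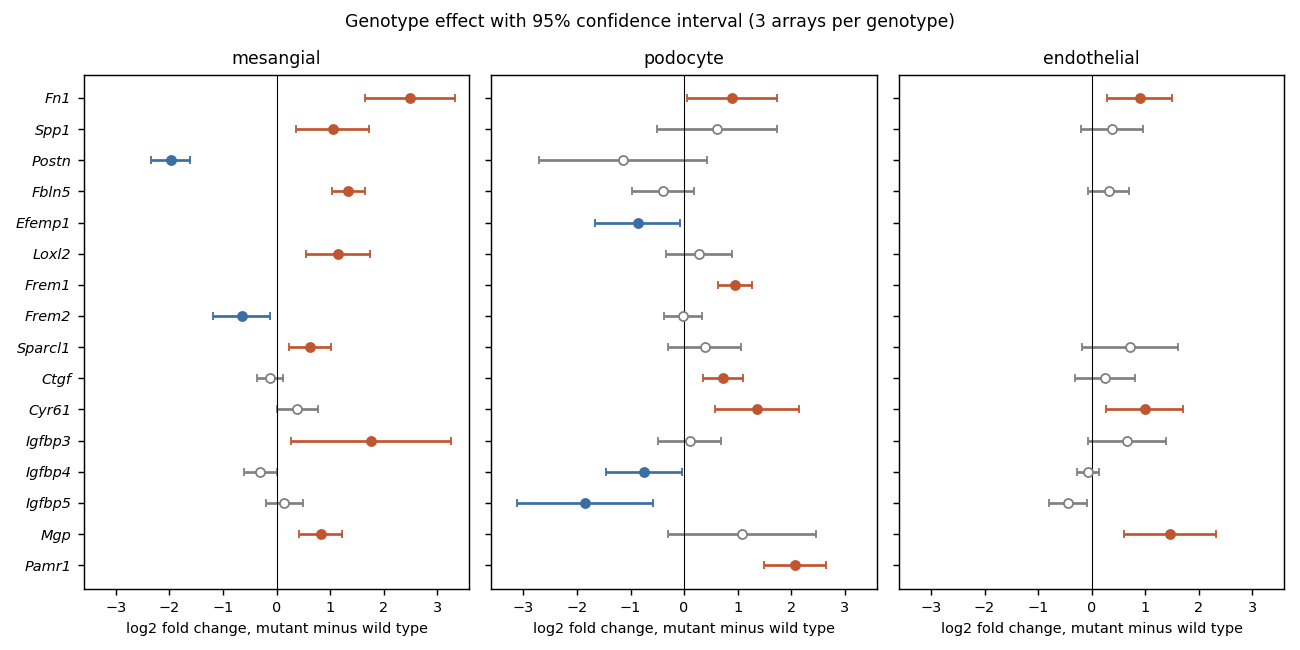
Log2 fold change of mutant over wild type with its 95% confidence interval from limma for the 16 called genes (horizontal axis, log2 units) in each cell type, 3 arrays per genotype. Filled orange points were called higher, filled blue points called lower, open grey points not called, and a missing point means that no array of that cell type reached 100. Fn1 lies to the right of 0 in all 3 panels, and Postn in mesangial cells and Igfbp5 in podocytes lie to the left.

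Of the 6 insulin-like growth factor binding proteins, which carry insulin-like growth factors in matrix and plasma, Igfbp3, Igfbp4 and Igfbp5 were called. Igfbp3 was called higher in mutant mesangial cells, with signals of 65.2, 92.0 and 126.4 in wild type and 146.3, 233.0 and 859.9 in mutant arrays. Mutant array C was far above the others, and the log2 fold change of 1.76 ± 0.63 (unadjusted p 0.0271, adjusted p 0.176) fell to 1.02 without it and was lost as a call without wild type array A or B. In endothelial cells Igfbp3 was 286.3, 138.6 and 239.1 in wild type and 493.4, 292.9 and 256.8 in mutant arrays, which overlapped and were not called (unadjusted p 0.0709). Its podocyte signals of 110.6, 96.6 and 68.4 against 131.0, 74.6 and 92.9 overlapped too.

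Igfbp5 and Igfbp4 were called lower in mutant podocytes. Igfbp5 had signals of 1229.7, 1519.7 and 954.5 in wild type and 850.3, 281.4 and 158.5 in mutant arrays A, B and C, with no overlap. Its log2 fold change was -1.85 ± 0.55, or 3.61-fold (unadjusted p 0.0101, adjusted p 0.213), and with each array left out it ranged from -2.52 to -1.31. The mutant arrays were ordered as their mesangial sums of 4991, 3808 and 2403 and their endothelial sums of 2845, 1413 and 938, and Igfbp5 was at 1328.0 or more in every mesangial and endothelial array. The part of those markers in the decrease was not tested. Mesangial Igfbp5 was 1772.8, 2614.6 and 2112.2 in wild type and 2504.0, 2292.5 and 2303.0 in mutant arrays, which overlapped, and endothelial Igfbp5 was 2419.5, 2229.6 and 2195.3 against 1328.0, 2005.5 and 1794.4, 1.35-fold lower without overlap (unadjusted p 0.0215) and under the fold threshold.

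Igfbp4 had podocyte signals of 214.6, 210.0 and 198.0 in wild type and 208.9, 109.2 and 83.3 in mutant arrays, where array A lay within the wild type range. The log2 fold change was -0.74 ± 0.31 (unadjusted p 0.0427, adjusted p 0.334), and the call held only with all arrays or without mutant array A and was lost with no signal minimum and with quantile normalization. As for Igfbp5, the mutant arrays were ordered as their mesangial sums of 4991, 3808 and 2403, their endothelial sums of 2845, 1413 and 938 and their erythroid sums of 5405, 720 and 232, whose part was not tested. Its mesangial signals were 448.5, 525.6 and 396.5 against 355.1, 339.5 and 407.5, and its endothelial signals 172.4, 158.5 and 157.9 against 149.1, 164.8 and 151.8, neither called. Igfbp2 was bright in mutant podocyte array A, at 226.6, with 94.1 and 61.5 in arrays B and C and 52.1 to 61.5 in wild type, and was not called (unadjusted p 0.0553). Igfbp6 and Igfbp7 in podocytes were 1.17-fold and 1.09-fold higher, and neither was called.

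Of the remaining genes, Mgp and Pamr1 were called. Mgp had mesangial signals of 1430.6, 1538.8 and 1013.5 in wild type and 2424.3, 2068.4 and 2449.5 in mutant arrays, with no overlap and a log2 fold change of 0.82 ± 0.17 (unadjusted p 0.00208, adjusted p 0.0597), a call lost with all 18 arrays in 1 fit. In endothelial cells Mgp was 125.3, 56.3 and 81.2 in wild type and 387.5, 168.0 and 183.1 in the arrays labelled mutant, again with no overlap, a log2 fold change of 1.46 ± 0.37 or 2.75-fold (unadjusted p 0.00447, adjusted p 0.113). Only 1 of the 3 wild type arrays reached 100, so this fold is mostly against signals under the minimum. The mesangial marker list summed to 1123 to 1231 in wild type and 1051 to 1206 in mutant endothelial arrays. The smooth muscle and renin cell list summed to 437 to 564 and 455 to 511. The leukocyte list summed to 494 to 546 in wild type and to 784, 605 and 476 in mutant endothelial arrays A, B and C. The part of any of these cells in the Mgp increase was not tested. In podocytes Mgp was 481.4, 464.3 and 351.8 in wild type and 1091.1, 2115.1 and 320.7 in mutant arrays. Arrays A and B were high and C lay below the wild type range, as for Loxl2 and with the smooth muscle and renin cell sum lowest in C, and the log2 fold change of 1.08 ± 0.60 was not called (unadjusted p 0.11).

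Pamr1, a secreted peptidase-domain protein linked to muscle regeneration, had the largest increase of these genes in podocytes. Its podocyte signals were 94.3, 106.1 and 115.7 in wild type and 664.7, 366.5 and 351.9 in mutant arrays. All mutant arrays lay above the wild type arrays, and mutant array C, low for Fn1 and Mgp, lay with the other mutant arrays here. The log2 fold change was 2.07 ± 0.25, or 4.20-fold (unadjusted p 4.34e-05, adjusted p 0.0657), and it ranged from 1.77 to 2.23 with each array left out. All 12 mesangial and endothelial arrays lay between 36.2 and 45.9. The parietal epithelium list of 5 genes summed to 475 to 488 in wild type and to 888, 887 and 687 in mutant podocyte arrays. Its largest member in the mutant arrays was Cldn1, at 503.0, 376.7 and 297.9 against 138.4 to 171.4 in wild type. The part of that list in the Pamr1 increase was not tested. Ecm1 had fold changes of 1.00 to 1.11 in the 3 cell types, Svep1 in podocytes was 1.37-fold lower (unadjusted p 0.124), and Matn2 and Vcan stayed below 100.

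Whether the genotype effect differed between cell types was tested as an interaction in a limma fit over all 18 arrays, with 38 of the 52 genes among 13523 transcript clusters. Between podocytes and mesangial cells 3 genes passed an adjusted p of 0.05, where 0.717% of all passed. These were Pamr1 (log2 difference of the effects 2.05 ± 0.26, adjusted p 0.000603), Frem1 (1.03 ± 0.15, adjusted p 0.00242) and Fbln5 (-1.74 ± 0.30, adjusted p 0.0104), the first 2 with the larger effect in podocytes and Fbln5 with the larger effect in mesangial cells. Between endothelial cells and podocytes 2 passed, Pamr1 (-2.12 ± 0.26) and Frem1 (-1.18 ± 0.15), both with an adjusted p of 0.00157, where 2.11% of all passed. Between endothelial and mesangial cells none of the 38 passed in limma, where 1.07% of all passed, and 8 had an unadjusted p under 0.05, beside 15.9% of all transcript clusters. Pamr1 and Frem1 entered this fit through podocyte arrays alone. Their signals in mesangial and endothelial arrays of both genotypes, 36.2 to 45.9 for Pamr1 and 34.9 to 45.2 for Frem1, lay under the minimum and under the array medians, so no effect could be read there and these 4 differences restate the podocyte effects. Fbln5 alone was above 100 in both cell types compared, in wild type mesangial arrays and in 2 of 3 wild type podocyte arrays. All 5 of these interaction calls held with each of the 18 arrays left out in turn. For Pamr1 and Frem1 this again read the podocyte effects alone. The 3 comparisons come from 1 fit, and any 2 of them share the arrays of 1 cell type.

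Leaving out arrays moved the podocyte count most. Without mutant podocyte array C, 10 genes were called higher (Fn1, Spp1, Loxl1, Loxl2, Frem1, Ctgf, Cyr61, Igfbp2, Mgp and Pamr1), where 1.91% of all transcript clusters were called higher in the same fit. Without array B 3 were (Frem1, Cyr61 and Pamr1), beside 1.17% of all. Frem1, Cyr61, Pamr1 and Igfbp5 were called in podocytes whichever array was left out. In mesangial cells Fn1, Spp1, Fbln5, Loxl2, Mgp and Postn were called in each such fit, including the one without wild type array C. In endothelial cells Fn1, Cyr61 and Mgp were called in each, and without wild type array A the count rose to 5 with Sparcl1 and Igfbp3, beside 3.46% of all.

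Other matrix genes and the receptors of the matrix were read from lists named with earlier results of these data known. Of 50 further matrix glycoproteins, 20 entered the mesangial comparison, where Thbs1 (thrombospondin 1, an activator of latent transforming growth factor beta) was called higher with a log2 fold change of 2.42 ± 0.31 and an adjusted p of 0.0169, and 0 were lower, beside 2.08% and 3.12% of all transcript clusters. In podocytes 21 entered, with 0 higher and Mmrn2, an endothelial multimerin, lower by 1.04 on the log2 scale (adjusted p 0.232), beside 1.26% and 4.34% of all. Mmrn2 was lower in arrays whose endothelial sums were 2845, 1413 and 938 beside 4625 to 6117 in wild type, and their part was not tested. In endothelial cells 21 entered and 4 were higher, Ltbp1, Hmcn1, Tinagl1 and Crim1, with log2 fold changes from 0.59 to 1.24, and 0 lower, beside 2.96% and 0.865% of all. None of these 4 passed adjustment in limma, with adjusted p from 0.0509 for Crim1 to 0.197 for Ltbp1. The median log2 fold change of this list was -0.01, -0.02 and 0.25, beside -0.03, -0.04 and 0.07 for all transcript clusters.

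Among 28 matrix receptors, integrins and related genes, 4 of the 19 that entered were lower in mutant mesangial cells and 0 higher, beside 3.12% of all transcript clusters lower. The mesangial marker sum was also lower in those arrays, at 8250 to 8975 against 11258 to 12102 in wild type, and its part was not tested. That list did not move as 1, since Meis1 within it was higher, at 231.0 to 320.6 against 189.1 to 224.0. Itga4 fell by 1.14 on the log2 scale (adjusted p 0.00492), Itga3 by 0.66 (adjusted p 0.0179), Itga8 by 0.59 (adjusted p 0.0235) and Bcam by 0.66 (adjusted p 0.08). In podocytes 5 of 20 were lower (Itga2, Itga4, Itga6, Itga8 and Itgb8), beside 4.34% of all, with none passing adjustment and with the mesangial and endothelial sums lower in the same arrays. Itga8 belongs to the mesangial marker list as well. In endothelial cells 2 of 13 were higher, Itga1 by 1.34 on the log2 scale (adjusted p 0.00834) and Itgb3 by 0.76 (adjusted p 0.162), beside 2.96% of all, and 0 lower.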

How the data were processed

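Mesangial cells, podocytes and endothelial cells of mutant and wild type mice were profiled after a single round of Ribo-SPIA amplification. The authors deposited 18 columns of linear intensity, which the sample records ascribe to RMA in Expression Console, a method that corrects background, normalizes by quantiles and summarizes probes. The deposited table holds 18 further per-array columns marked as normalized, which were not used. The series record names Exon arrays and GeneBASE, which the file header does not. On the log2 scale the intensities were fitted with limma 3.58.1 (lmFit, eBayes; R 4.3.3), with no covariates, within each cell type for genotype, over 9 wild type arrays for cell type and over 18 arrays for interactions. P values were adjusted over all transcript clusters of a fit (Benjamini-Hochberg). Fits were tested on simulated data. The number of arrays limits the precision.

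The 52 genes, their role groups, the other lists and the alternatives were chosen with earlier results of these data known. Genes called by genotype, those that passed an interaction and those the study names are given array by array. RNA-seq was not analysed here. Alternatives were adjusted p, a stringent screen (fold change over 2, signal of at least 500), no signal minimum, 1 fit over all arrays, trend and robust eBayes, array medians subtracted, quantile normalization, single-symbol clusters and each array left out.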

Additional observations from a re-analysis of the deposited data

Results flagged for a closer look

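The difference of a genotype effect between cell types passed limma at an adjusted p under 0.05 for 3 of the 38 genes. Of all 13523 transcript clusters, 0.717% passed between podocytes and mesangial cells and 2.11% between endothelial cells and podocytes. For Pamr1 the effect in podocytes exceeded that in mesangial cells by 2.05 on the log2 scale, and the effect in endothelial cells minus that in podocytes was -2.12. For Frem1 the same 2 differences were 1.03 and -1.18. Both genes lay at 34.9 to 45.9 in the mesangial and endothelial arrays of both genotypes, under the minimum of 100, so no effect could be read there and these 4 differences restate the effects in podocytes. For Fbln5 the effect in podocytes minus that in mesangial cells was -1.74, with mutant mesangial arrays at 292.8 to 390.4 and mutant podocyte arrays at 64.9 to 123.1. The 3 mutant podocyte arrays were ordered for Fbln5 as for their mesangial sums of 4991, 3808 and 2403, whose part was not tested.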

How the results depend on the processing

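No call of a matrix gene reversed in any alternative. Of 20 genotype calls 13 held with each array left out in turn, as did 47 of 51 calls between wild type cell types and 5 of 5 interaction calls. The interaction calls of Pamr1 and Frem1 among these restate podocyte effects. With the adjusted p in place of the unadjusted one, 2 genes were higher and 1 lower in mesangial cells, and 0 higher and 0 lower in podocytes and 0 higher in endothelial cells. Of all transcript clusters 2.92%, 0.0578% and 1.29% had an adjusted p under 0.05 in these cell types in that order, in either direction. Under the stringent screen 2 were higher and 0 lower in mesangial cells, 2 higher and 1 lower in podocytes and 0 higher in endothelial cells. The shares of all transcript clusters higher and lower there were 0.297% and 0.227% in mesangial cells and 0.165% and 0.487% in podocytes. In endothelial cells they were 0.415% and 0.0794%. With no signal minimum 1 gene was lower in podocytes, the median log2 fold change in endothelial cells went from 0.23 to -0.035 over more genes, and 1 gene (Fbn2, under 100 on every array) passed as lower in the interaction of endothelial against mesangial cells. With 1 array left out at a time, mesangial counts were 6 to 8 higher and 1 to 2 lower, podocyte counts 3 to 10 higher and 1 to 4 lower, and endothelial counts 3 to 5 higher and 0 to 1 lower. Interaction counts with 1 array left out were 1 to 4 lower for podocytes against mesangial cells, 0 to 1 higher and 0 to 1 lower for endothelial against mesangial cells, and 0 to 4 higher and 2 to 4 lower for endothelial cells against podocytes. The count of 10 came without mutant podocyte array C and the count of 5 without wild type endothelial array A. In those fits 1.91% and 3.46% of all transcript clusters were called higher. No such share is given here for the other counts with 1 array left out or with no signal minimum, so these describe the genes alone. Igfbp3 in mesangial cells was lost with trend and robust eBayes, and Sparcl1 and Mgp there with all 18 arrays in 1 fit. That fit also ended the wild type calls of Cyr61 and Igfbp5 between mesangial cells and podocytes, of Igfbp3 between mesangial and endothelial cells, and of Tnc, Igfbp3 and Igfbp5 between podocytes and endothelial cells. In podocytes Fn1 was lost with array medians subtracted, Fn1 and Igfbp4 with quantile normalization, and Fn1, Efemp1 and Igfbp4 with no signal minimum. The cause of these changes was not tested. No paired analysis was possible because the groups share no replicate numbers in the labels. Genes entered when 1 array reached a signal of 100, so some fold changes are against groups wholly under it, where the signal sets only a bound.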
